A study of Mus musculus with 12 samples.

Results

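The kidney response to angiotensin II (ANG II) infusion, averaged over wild-type (WT) and receptor-deficient (KO) mice, was the difference between the mean of the 2 infused groups and the mean of the 2 baseline groups, taken from all 12 arrays in a model with 4 group means. The genes described here are those that changed the same way in both genotypes. Each had to be called with 1 sign in the averaged contrast and in each genotype's own response, at a Benjamini-Hochberg adjusted p under 0.05 in limma. With 1 probe set for each gene, 438 of 18193 genes met this, of which 174 rose (0.956% of all genes) and 264 fell (1.45%). Since the calls chose these genes, their p-values in the same contrasts are a description. The difference between the genotypes' responses is limited by that choice too, and only the other probe sets of each gene were not used in it.

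Kidneys came from male mice of 2.5 months, of the strain F1 (C57BL6 X 129/SvEv), with 3 mice and 3 arrays in each group. WT and AGTR1A-KO mice were studied at baseline on NS diet, or on the same diet after a 2-day infusion of ANG II at a dose of 1 ug/kg/min. KO mice of this kind lack the AT1A receptor and still carry the genes of the AT1B and AT2 receptors. The labels say nothing of a sham operation or vehicle infusion in the baseline mice, and the contrast holds the hormone together with any effect of its delivery.

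Renin and the converting enzyme produce angiotensin II from angiotensinogen. The peptide raises blood pressure and renal sodium reabsorption through AT1 receptors, of which AT1A is the main form in the mouse kidney. It also binds the AT2 receptor, and the pressure and aldosterone it raises act on the kidney in turn. The comparison asks which kidney genes change during the infusion whether or not AT1A is present.

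Each value was a ratio of an array to the median of that probe set over the 12 arrays, so changes can be read while levels of different genes cannot be compared, and the tissue label could not be checked against absolute marker levels. Array medians ran from 0.986 to 1.014, and the spread of each array's log2 ratios was 0.164 to 0.342 (SD over probe sets). The targeted gene Agtr1a had ratios of 1.37, 1.40 and 1.36 in WT baseline kidneys, against 1.04, 0.923 and 0.965 in KO baseline kidneys. In infused kidneys the genotypes overlapped, at 0.957, 1.00 and 0.997 in WT and 0.983, 0.917 and 1.05 in KO, so this probe set checks the labels at baseline only. Relative 3' minus 5' values of Actb, a sign of RNA quality, were higher in infused than in baseline arrays of both genotypes. On the log2 scale they were -0.0253 to 0.00691 in WT baseline and 0.0747 to 0.15 in WT ANG II arrays, and -0.0517 to -0.0274 in KO baseline and 0.00156 to 0.0345 in KO ANG II arrays. Those of Gapdh overlapped between the groups. The part of RNA quality in the results was not tested.

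In the averaged contrast 6189 of 45037 probe sets rose, which is 13.7%, and 6138 fell, which is 13.6%. Far fewer were called in both genotypes, namely 394 upward (0.875%) and 813 downward (1.81%). For the WT response alone the shares were 10.9% upward and 13.3% downward, and for the KO response 3.6% and 6.31%. Of the 12327 averaged calls, 9.79% were shared by both genotypes. A further 6026 were also called in WT only, 2000 in KO only, and 3029 in neither genotype alone. Most averaged calls, 11203 of them, had the same sign in both genotypes. A call on average was thus not a call in each genotype.

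Cyp4a14, a fatty acid hydroxylase, is the clearest example of an averaged rise that was not shared. It had the largest averaged rise of all genes, a log2 change of 3.08 ± 0.24 (moderated SE, adjusted p = 5.48e-06), from 5.48 in WT and 0.68 in KO, where the adjusted p was 0.221. Serpina6, the corticosteroid-binding globulin, likewise averaged 1.64 from 3.00 in WT and 0.29 in KO. Both genes differed between the genotypes in the test of the difference, with adjusted p = 7.21e-05 and 0.00363.

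**Figure D1:**
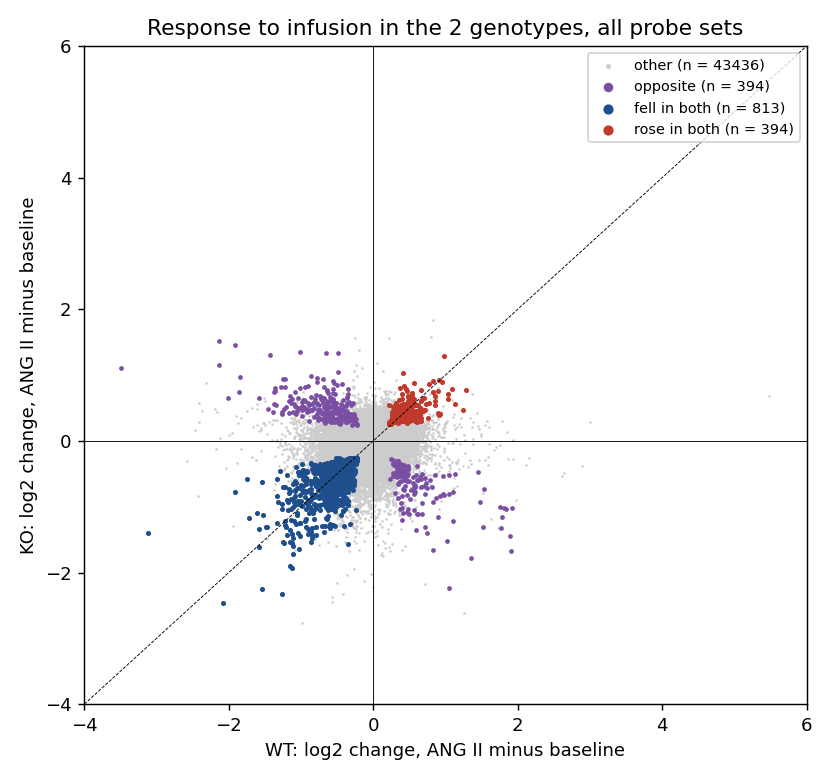
Each point is a probe set, with its log2 change during infusion in WT on the horizontal axis and in KO on the vertical axis (3 arrays per group). Red and blue points mark the 394 that rose and the 813 that fell in both genotypes, purple points the 394 called in opposite directions, and the dashed line marks equal responses.

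Shared changes were mostly small. The median averaged log2 change was 0.39 for the 174 rising genes (0.38 in WT and 0.39 in KO) and -0.54 for the 264 falling genes (-0.51 in WT and -0.55 in KO), against 0.03 over all genes. At least a 1.5-fold change in each genotype was reached by 10 rises and 67 falls. All 6 infused arrays lay above all 6 baseline arrays for 78 of the 174 rises (1.42% of all genes did so), and below them for 144 of the 264 falls (2.37% of all genes). The genes were chosen by calls in these same arrays, which favours such separation, so the gap to all genes is only a description. The genes next to the threshold were Apon and Csf2ra just inside, each with 0.0499 as the larger adjusted p of the genotypes, and Ncapg2 and Fam222b just outside, each with 0.0501.

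These counts depended on scaling and on single arrays. Quantile normalization of the ratios gave 2992 averaged rises and 4730 falls in place of 6189 and 6138, and 158 shared rises and 711 shared falls in place of 394 and 813. By gene it kept 66 of the 174 rises and 156 of the 264 falls. Leaving out 1 array lowered the shared rises to 124 and 132 without KO ANG II array 2 or 3, to 181, 127 and 189 without KO baseline array 1, 2 or 3, and to 176 and 220 without WT baseline array 1 or 2. The shared falls dropped to 505 and 488 without KO ANG II array 2 or 3, to 526 and 499 without KO baseline array 1 or 2, and to 507 and 541 without WT baseline array 1 or 2. In every one of the 12 fits with an array left out, 26 rising and 74 falling genes stayed shared.

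Among the leading rises were genes of mitochondrial and sugar metabolism. Sfxn1 encodes a mitochondrial serine carrier, and the probe set used had ratios of 0.691, 0.605 and 0.738 in WT baseline, 1.44, 1.26 and 1.31 in WT ANG II, 0.618, 0.700 and 0.613 in KO baseline and 1.69, 1.49 and 1.52 in KO ANG II kidneys. All infused arrays were above all baseline arrays. The averaged rise was 2.19-fold, a log2 change of 1.13 ± 0.07 (adjusted p = 8.08e-07), with 0.98 in WT and 1.28 in KO. The other probe set of Sfxn1 had an averaged change of -0.14 and was not called.

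Mmut, the mitochondrial methylmalonyl-CoA mutase, rose by 0.71 ± 0.06 on the log2 scale in 1 of its 3 probe sets. Its ratios were 0.794, 0.728 and 0.855 in WT baseline, 1.33, 1.14 and 1.27 in WT ANG II, 0.677, 0.774 and 0.710 in KO baseline and 1.20, 1.23 and 1.24 in KO ANG II arrays, with no overlap. The call of Mmut in both genotypes ended when its probe sets were averaged (larger adjusted p = 0.282). Uqcrc2, a core subunit of respiratory complex III, rose by 0.35 in WT and 0.53 in KO, again in 1 of 2 probe sets. Its call in both genotypes ended when its probe sets were averaged (larger adjusted p = 0.401). It was the only 1 of 29 measured oxidative phosphorylation genes to rise in both genotypes (0.956% of all genes did so). On average 1 of the 29 rose and 4 fell (14% and 13.7% of all genes). In WT alone 1 rose and 6 fell, with a median log2 change of -0.1, against 1 rise, 0 falls and 0.09 in KO.

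Fbp2 encodes the fructose-1,6-bisphosphatase of muscle, a step of gluconeogenesis, and has 1 probe set. Its ratios were 1.04, 0.948 and 1.00 in WT baseline, 1.78, 1.42 and 1.62 in WT ANG II, 0.706, 0.718 and 0.569 in KO baseline and 0.995, 0.909 and 1.24 in KO ANG II kidneys. Infused arrays were above baseline arrays within each genotype, while KO ANG II overlapped WT baseline. The responses were 0.68 ± 0.13 in WT and 0.65 ± 0.13 in KO, and the 95% interval of their difference was -0.41 to 0.35.

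Npl, the lyase that breaks down sialic acid, rose 2.04-fold on average, by 1.29 in WT and 0.77 in KO. Its ratios were 1.01, 0.855 and 0.986 in WT baseline, 3.47, 1.77 and 2.02 in WT ANG II, 0.825, 0.698 and 0.521 in KO baseline and 1.17, 0.987 and 1.28 in KO ANG II arrays. KO ANG II arrays overlapped WT baseline arrays, and WT ANG II arrays lay above them all. Its call in both genotypes ended without KO ANG II array 1, 2 or 3 (larger adjusted p = 0.0739, 0.0534 and 0.128), without KO baseline array 2 or 3 (0.0889 and 0.134) and without WT baseline array 1 (0.0508).

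Promoter windows of RefSeq (build GRCm38.p6), the 250 bases before the annotated start, were searched on both strands for 7 short motifs (the E-box CACGTG, the AP-1 motif TGANTCA, the cyclic AMP element TGACGTCA, the antioxidant core TGACNNNGC, the TATA box TATAAA, the interferon-stimulated response element, as GAAA repeated after any 2 bases, and the heat shock element, as GAA, TTC and GAA each 2 bases apart), and 21 of the 30 leading genes had a window. Npl and Fbp2 are shown because both rises hold the E-box, which basic helix-loop-helix factors such as those of the clock can bind. The Npl window is chr1:153549715-153549964 on the minus strand, and the Fbp2 window is chr13:62858401-62858650 on the minus strand. Capitals mark the E-box, at -51 in Npl and at -42 in Fbp2, where it overlaps the AP-1 motif, in capitals too, that starts at -47.
Npl: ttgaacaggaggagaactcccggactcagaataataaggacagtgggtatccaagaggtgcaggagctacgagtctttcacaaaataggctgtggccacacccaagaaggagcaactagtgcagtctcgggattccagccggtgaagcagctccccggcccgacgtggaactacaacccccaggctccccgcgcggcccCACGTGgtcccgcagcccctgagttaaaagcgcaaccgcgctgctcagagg
Fbp2: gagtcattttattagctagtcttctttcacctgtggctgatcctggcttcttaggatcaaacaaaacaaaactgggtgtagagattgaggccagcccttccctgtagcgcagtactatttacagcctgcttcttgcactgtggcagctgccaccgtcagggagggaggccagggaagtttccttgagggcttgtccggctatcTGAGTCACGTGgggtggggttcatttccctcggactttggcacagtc
The E-box was present in 4.29% of the windows of shared rises, 6.93% of those of shared falls and 6.02% of all 32851 windows. The AP-1 motif was present in 3.07% of the windows of shared rises and 6.75% of all windows. A match describes these letters and is no evidence of binding.

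Lipid, transport and signalling genes were also among the leading rises. Apoc3, an apolipoprotein that inhibits lipoprotein lipase, rose by 1.03 in WT and 0.71 in KO. Nox4, the NADPH oxidase of renal tubules, rose by 1.04 and 0.63, and its second probe set rose by 0.46 on average and was not shared. The calls of these genes in both genotypes ended without KO ANG II array 3 (larger adjusted p = 0.0741 for Apoc3 and 0.0717 for Nox4) and without KO baseline array 3 (0.0607 and 0.0601). That of Nox4 also ended when its probe sets were averaged (0.059). Slc7a7, the basolateral exporter of cationic amino acids, rose in both of its probe sets, by 0.62 and 0.63 on average. It was the only rising gene with several probe sets of which each was called in both genotypes, but its call ended with quantile normalization (larger adjusted p = 0.109) and without 8 of the 12 arrays, with 0.122 at most, without WT baseline array 2.

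Mettl1, a methyltransferase of transfer RNA, had ratios of 0.767, 0.771 and 0.806 in WT baseline, 1.71, 1.19 and 1.32 in WT ANG II, 0.811, 0.761 and 0.775 in KO baseline and 1.27, 1.25 and 1.43 in KO ANG II kidneys. The baseline groups were alike and every infused array was higher, an averaged rise of 0.79 ± 0.08 (adjusted p = 4.42e-05). A second of its 3 probe sets rose by 0.77. Ttc38 rose by 0.65 ± 0.06 in its only probe set, with baseline ratios of 0.772 to 0.900 and infused ratios of 1.10 to 1.55. Lhx1, a homeobox factor of kidney development, rose by 0.87 ± 0.09 in 1 probe set, and the other had -0.23 and was not called. The call of Lhx1 in both genotypes ended when its probe sets were averaged (larger adjusted p = 0.0826). Rora, a nuclear receptor that activates clock genes, rose by 0.76 in WT and 0.35 in KO. It was the only shared gene of 18 clock genes (2.41% of all genes were shared). Its call in both genotypes ended without any 1 KO ANG II array or without KO baseline array 1 or 3, with a larger adjusted p of 0.0520 to 0.0963. It also ended when the 9 probe sets of Rora, of which 1 was shared, were averaged (0.786). Hp, the hemoglobin-binding acute-phase protein haptoglobin, rose by 0.50 in WT and 0.31 in KO, and its call in both genotypes ended without any KO array but KO ANG II array 1, with 0.0585 to 0.0874.

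**Figure D2:**
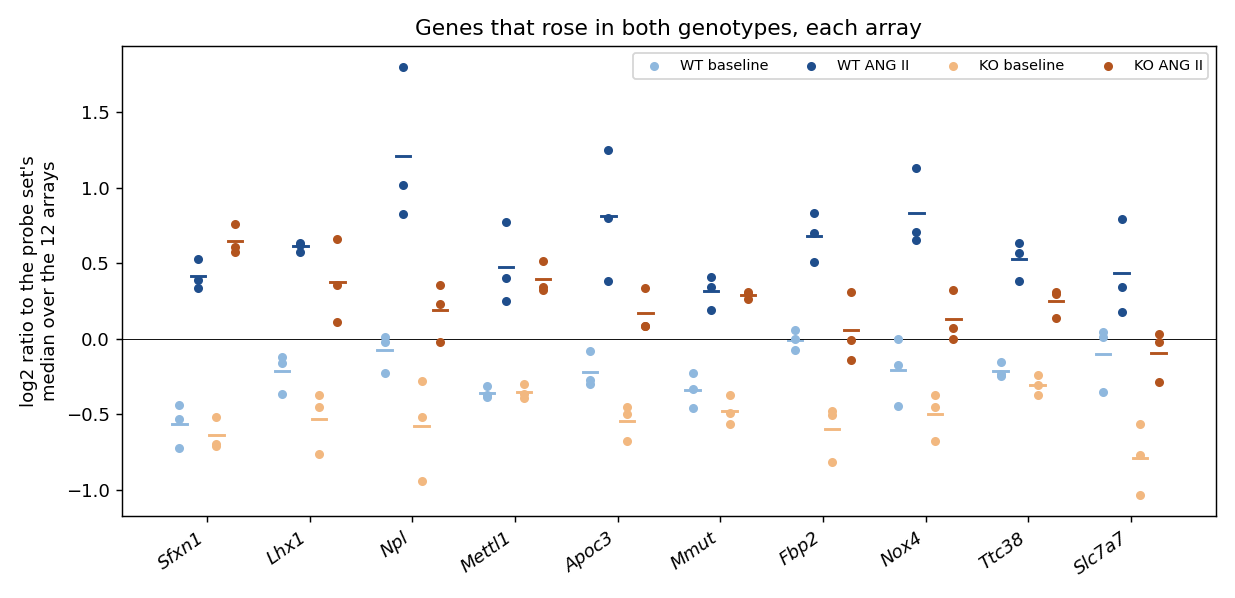
Log2 ratio to the probe set's median for 10 genes that rose in both genotypes, 1 point per array and a bar at the mean of each group (n = 3). For Sfxn1, Mettl1, Mmut and Ttc38 every infused array was above every baseline array, while for Npl, Fbp2, Nox4 and Slc7a7 KO ANG II arrays overlapped WT baseline arrays.

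The leading falls were of mixed function. Ces1g, a carboxylesterase of lipid and drug metabolism, had the largest averaged fall of all genes. Its ratios were 1.24, 0.975 and 1.65 in WT baseline, 0.0921, 0.189 and 0.173 in WT ANG II, 2.20, 1.83 and 2.87 in KO baseline and 0.673, 0.927 and 1.02 in KO ANG II kidneys. Infused arrays were below baseline arrays within each genotype, and KO ANG II overlapped WT baseline. It fell by 3.12 in WT and by 1.39 in KO, and the responses differed (difference 1.73 ± 0.37, adjusted p = 0.011).

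Among the leading falls were a few genes of matrix and stroma whose KO baseline lay above the other groups. Abi3bp, an extracellular matrix protein, had ratios of 1.25, 1.48 and 0.830 in WT baseline, 0.384, 0.605 and 0.5 in WT ANG II, 2.98, 3.01 and 1.90 in KO baseline and 1.16, 0.837 and 0.716 in KO ANG II arrays. KO ANG II values overlapped those of WT baseline. The averaged fall was 1.39 in each of its probe sets. C1ra, a protease that starts the classical complement cascade, had ratios of 1.13, 1.06 and 0.905 in WT baseline, 0.549, 0.530 and 0.466 in WT ANG II, 2.07, 1.97 and 1.53 in KO baseline and 1.04, 0.945 and 0.957 in KO ANG II arrays. It fell by 1.00 ± 0.12 in WT and 0.91 ± 0.12 in KO (difference 0.09, 95% interval -0.27 to 0.46).

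Tnc, the matrix glycoprotein tenascin C, and Pdgfra, the platelet-derived growth factor receptor of fibroblasts, also fell from a higher KO baseline. Tnc fell by 1.15 in WT and 1.35 in KO in 1 of 2 probe sets, a call that ended with quantile normalization (larger adjusted p = 0.132) and without KO ANG II array 3 (0.0673), KO baseline array 1 or 2 (0.0815 and 0.0698), WT ANG II array 1 or 3 (0.0835 and 0.0538) or WT baseline array 1 or 2 (0.101 and 0.0792). Pdgfra fell by 0.93 and 1.04 in the probe set used, 1 of 3. Of the others, 1 fell by 1.06 on average and was not shared, and 1 had -0.32 and was not called. The call of Pdgfra ended when its probe sets were averaged (0.103). It also ended without KO ANG II array 3 (0.0672), WT ANG II array 3 (0.0504) or WT baseline array 1 (0.0587).

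Of 10 fibroblast markers 9 fell in the averaged contrast and 0 rose, against 13.7% of all genes falling and 14% rising. By genotype 2 fell in WT and 5 in KO, with median log2 changes of -0.49 and -0.87. Only 1, Pdgfra, was shared. The mean log2 ratio of the 10 markers was 0.431 to 1.367 in KO baseline arrays, -0.368 to 0.105 in WT baseline, -0.159 to 0.349 in KO ANG II and -0.796 to -0.28 in WT ANG II arrays. Of 27 matrix and fibrosis genes, 6 of which are also on the fibroblast list, 17 fell on average, 0 rose and 0 were shared. By genotype 2 of the 27 fell in WT and 11 in KO, with median log2 changes of -0.2 and -0.62. The averaged falls of matrix genes numbered 5 with quantile normalization and 8 without KO ANG II array 2 or WT baseline array 2. They numbered 11 without KO ANG II array 3, KO baseline array 1 or WT baseline array 1. The fibroblast falls numbered 4 with quantile normalization and 6 without KO ANG II array 2, KO baseline array 2 or WT baseline array 2. In whole kidney, fewer cells of a type and less RNA per cell cannot be told apart. The part of cell composition in these falls was not tested.

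Macrophage markers moved in the same way, with 13 of 18 falling and 1 rising on average (13.7% and 14% of all genes). In WT alone 5 fell and 1 rose, with a median log2 change of -0.34, against 11 falls, 0 rises and -0.85 in KO. Of the 18 markers, 4 fell in both genotypes (1.45% of all genes). Cd68, a lysosomal protein of macrophages, had ratios of 1.18, 1.02 and 0.595 in WT baseline, 0.595, 0.574 and 0.523 in WT ANG II, 2.68, 2.68 and 1.88 in KO baseline and 1.04, 0.895 and 0.978 in KO ANG II arrays, so that the WT groups met at 0.595. The others were the complement subunit C1qc (-0.65 in WT, -1.17 in KO), the signalling adaptor Tyrobp (-0.64, -0.99) and the mannose receptor Mrc1 (-0.55, -1.0). With quantile normalization or without WT baseline array 1, 0 of the 18 markers were shared, without WT baseline array 2 there was 1, and without WT ANG II array 1 there were 2. The mean of the 18 markers was 0.542 to 1.084 in KO baseline arrays and -0.251 to -0.005, -0.497 to -0.288 and -0.097 to 0.245 in WT baseline, WT ANG II and KO ANG II arrays.

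Interferon-stimulated genes, induced by type I or II interferons in antiviral defence, had 17 of 29 measured members falling and 2 rising on average (13.7% and 14% of all genes). Of these, 8 fell in both genotypes (1.45% of all genes), namely Ifit1, Usp18, Oasl2, Gbp2, Xaf1, Rtp4, Ifih1 and Psmb8. Gbp2, an interferon-induced GTPase, had ratios of 1.03, 0.979 and 0.809 in WT baseline, 0.572, 0.662 and 0.525 in WT ANG II, 1.94, 1.98 and 1.76 in KO baseline and 1.00, 1.12 and 0.997 in KO ANG II kidneys. Both of its probe sets fell, by 0.77 and 0.76 on average. Rtp4, a transporter-chaperone induced by interferon, had ratios of 1.14, 1.18 and 0.849 in WT baseline, 0.399, 0.547 and 0.484 in WT ANG II, 1.73, 1.54 and 1.51 in KO baseline and 1.04, 0.962 and 0.838 in KO ANG II kidneys. It fell by 1.14 ± 0.14 in WT and 0.76 ± 0.14 in KO in the probe set used, and its other probe set had an averaged change of -0.04 and was not called. In both genes the groups separated within each genotype, and KO ANG II overlapped WT baseline.

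Oasl2, of the oligoadenylate synthetase family, fell by 0.68 in WT and 0.89 in KO, and Ifit1, which binds viral RNA, fell by 0.58 and 0.99. The call of Oasl2 ended with quantile normalization (larger adjusted p = 0.0763), as did that of Ifit1 (0.125), and Ifit1 was also lost without WT ANG II array 1 or 2 (0.0782 and 0.0579) or WT baseline array 1 or 2 (0.122 and 0.0562). The count of shared interferon genes was 4 with quantile normalization and 5 without WT baseline array 1 or 2. Ifi27l2a, another interferon-inducible gene, fell by 1.26 in WT and 1.03 in KO, a call that ended without KO ANG II array 2 or 3 (0.0665 and 0.0991) or KO baseline array 1 or 2 (0.0977 and 0.0825).

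Genes that present antigen on MHC class II followed, with 6 of 10 falling and 1 rising on average (13.7% and 14% of all genes). In WT alone 3 fell and 1 rose, with a median log2 change of -0.16, against 7 falls, 0 rises and -0.76 in KO. Of the 10 genes, 3 fell in both genotypes (1.45% of all genes). H2-Aa, the alpha chain of the class II molecule I-A, fell in both genotypes in each of its 4 probe sets, by 0.81 to 1.25 on average. The probe set used had ratios of 1.00, 0.999 and 0.788 in WT baseline, 0.378, 0.635 and 0.579 in WT ANG II, 2.72, 2.38 and 1.88 in KO baseline and 1.21, 0.944 and 1.08 in KO ANG II arrays. H2-Eb1, a beta chain, changed by -0.51 in WT and -1.01 in KO, and Cd74, the invariant chain, by -0.53 and -1.07. H2-Aa alone of the 3 stayed shared with quantile normalization, without WT baseline array 1 or 2 and without WT ANG II array 1.

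Cxcl14, a chemokine made by epithelium and stroma, fell 2.53-fold on average, by 1.15 in WT and 1.53 in KO, and both probe sets were shared. Its ratios were 0.811, 1.09 and 0.624 in WT baseline, 0.286, 0.5 and 0.354 in WT ANG II, 3.84, 5.03 and 1.69 in KO baseline and 1.34, 0.962 and 1.04 in KO ANG II arrays. The KO baseline arrays spread over the widest range. The call ended with quantile normalization (larger adjusted p = 0.137) and without WT ANG II array 1 or 3 (0.0679 and 0.0656) or WT baseline array 1 or 2 (0.0666 and 0.0856).
The promoter window of Cxcl14, chr13:56296552-56296801 on the minus strand, is shown because it holds the interferon-stimulated response element, in capitals, at -172. This window lies inside the annotated span of the gene, 56288643 to 56296811, and so precedes only a start within that span.
Cxcl14: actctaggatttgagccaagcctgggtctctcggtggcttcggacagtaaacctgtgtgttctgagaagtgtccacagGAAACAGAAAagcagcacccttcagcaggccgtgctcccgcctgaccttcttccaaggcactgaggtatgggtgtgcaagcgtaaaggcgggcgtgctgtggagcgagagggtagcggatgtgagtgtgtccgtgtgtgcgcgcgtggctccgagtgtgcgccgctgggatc
This element was present in 5.11% of the windows of shared falls, 1.84% of those of shared rises, 2.98% of all windows, and 10 of the 24 windows (41.7%) of the interferon-stimulated list. Among the windows of the interferon genes that fell in both genotypes 2 of 6 held it. These shares are descriptions without a test.

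**Figure D3:**
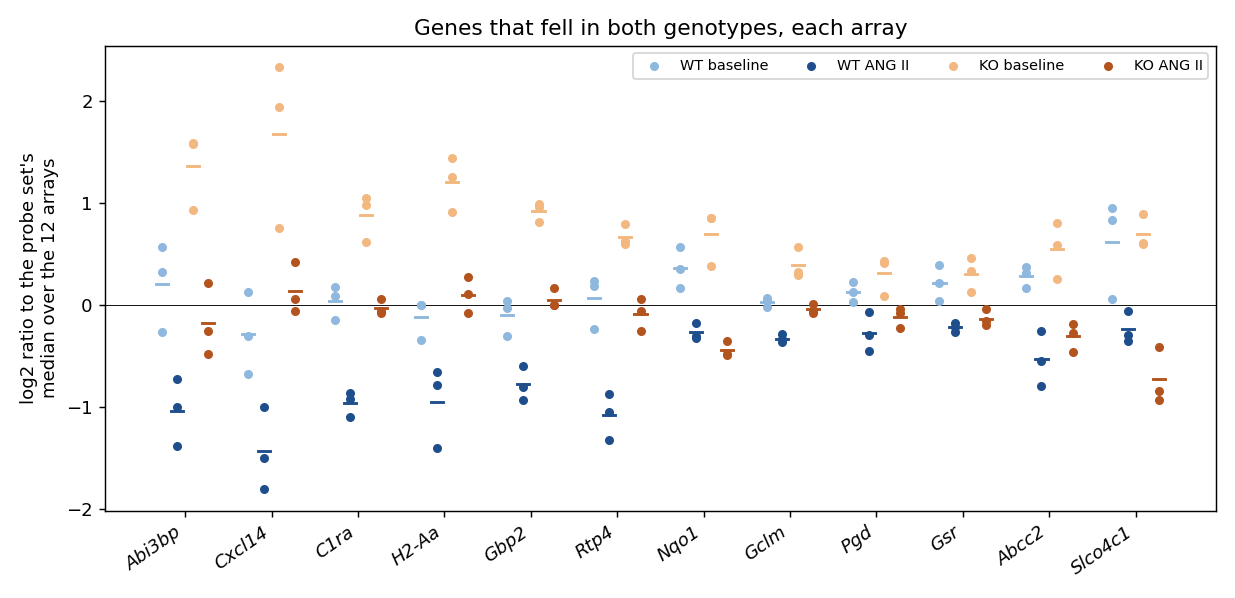
Log2 ratio to the probe set's median for 12 genes that fell in both genotypes, 1 point per array and a bar at the mean of each group (n = 3). In the first 6 genes KO baseline lay highest, WT ANG II lowest, and KO ANG II near WT baseline, while for Nqo1, Abcc2 and Slco4c1 every infused array was below every baseline array.

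Targets of NRF2, the transcription factor that induces antioxidant and conjugating enzymes, were also among the shared falls. On average 12 of 21 fell and 2 rose (13.7% and 14% of all genes), and 6 fell in both genotypes, namely Nqo1, Gclm, Gstp1, Pgd, Ugdh and Abcc2 (1.45% of all genes). In WT alone 8 fell and 5 rose, with a median log2 change of -0.04, against 12 falls, 0 rises and -0.46 in KO. The mean log2 ratio of the list overlapped between WT baseline (-0.019 to 0.062) and WT ANG II arrays (-0.064 to 0.098), and was 0.157 to 0.326 in KO baseline and -0.215 to -0.191 in KO ANG II arrays. Nqo1, a quinone reductase, had ratios of 1.28, 1.12 and 1.48 in WT baseline, 0.884, 0.808 and 0.801 in WT ANG II, 1.30, 1.80 and 1.80 in KO baseline and 0.711, 0.718 and 0.785 in KO ANG II kidneys. All 6 infused arrays were below all 6 baseline arrays, an averaged fall of 0.88 on the log2 scale (SE 0.09, adjusted p = 5.15e-05). For 5 of the 21 targets all infused arrays lay below all baseline arrays (2.37% of all genes).

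Gstp1, a glutathione transferase, had ratios of 1.17, 1.08 and 1.26 in WT baseline, 0.673, 0.736 and 0.863 in WT ANG II, 1.36, 1.34 and 1.48 in KO baseline and 0.917, 0.919 and 0.914 in KO ANG II arrays. It fell by 0.63 in WT and 0.60 in KO (difference 0.03, 95% interval -0.26 to 0.33). Ugdh, which makes the glucuronic acid donor, fell by 0.40 and 0.66. Gclm, the modifier subunit of glutathione synthesis, fell by 0.36 and 0.44, and Pgd, which makes NADPH in the pentose phosphate pathway, fell by 0.40 and 0.42, in each of the 2 and 4 probe sets of these genes. The calls of Nqo1, Gstp1, Ugdh and Abcc2 in both genotypes held under each of the 21 other settings. Hmox1, the heme oxygenase and an NRF2 target, stood apart, at 2.64 in WT and -0.49 in KO, where it was not called.

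Membrane transporters were part of the shared falls. Abcc2, which exports conjugated anions across the apical membrane of the proximal tubule, had ratios of 1.24, 1.12 and 1.29 in WT baseline, 0.841, 0.683 and 0.576 in WT ANG II, 1.19, 1.5 and 1.75 in KO baseline and 0.826, 0.727 and 0.878 in KO ANG II arrays. It fell by 0.81 in WT and 0.86 in KO. Slco4c1, an organic anion transporter of the proximal tubule, fell by 0.84 and 1.43, with baseline ratios of 1.04 to 1.93 and infused ratios of 0.526 to 0.963. Both genes had all infused arrays below all baseline arrays. Of 22 organic anion and cation transporters 10 fell and 2 rose on average (13.7% and 14% of all genes). Abcc2 and Slco4c1 were the 2 that fell in both genotypes (1.45% of all genes). In WT alone 14 fell and 2 rose, with a median log2 change of -0.39, against 3 falls, 2 rises and 0.11 in KO. Atp2b1, a plasma membrane calcium pump, fell by 0.46 in WT and 0.80 in KO in 1 of 3 probe sets. Aqp3, the basolateral water channel of principal cells, fell by 0.64 and 0.47, a call that ended without any KO array but KO ANG II array 2 and KO baseline array 2, and without WT baseline array 1 or 2, with a larger adjusted p of 0.0525 to 0.143, and was 0.0558 with the replicate block.

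Of the other cell type lists, podocyte and endothelial markers had shared falls. Cdkn1c, a cell-cycle inhibitor kept on in mature podocytes, fell by 0.56 in WT and 0.78 in KO. On average 5 of 11 podocyte markers fell (13.7% of all genes), and 1 of the 11, Cdkn1c, was shared (1.45% of all genes). Tek, the angiopoietin receptor, and Cd34 fell in both genotypes, 2 of 17 endothelial markers (1.45% of all genes). On average 8 of the 17 fell (13.7% of all genes). Neither Tek nor Cd34 stayed shared with quantile normalization (larger adjusted p = 0.0724 and 0.14). Leaving out 1 array lost both in 6 of 12 cases and 1 of them in 3. Of 24 proximal tubule markers 0 were shared, again near the 2.41% of all genes.

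**Figure D4:**
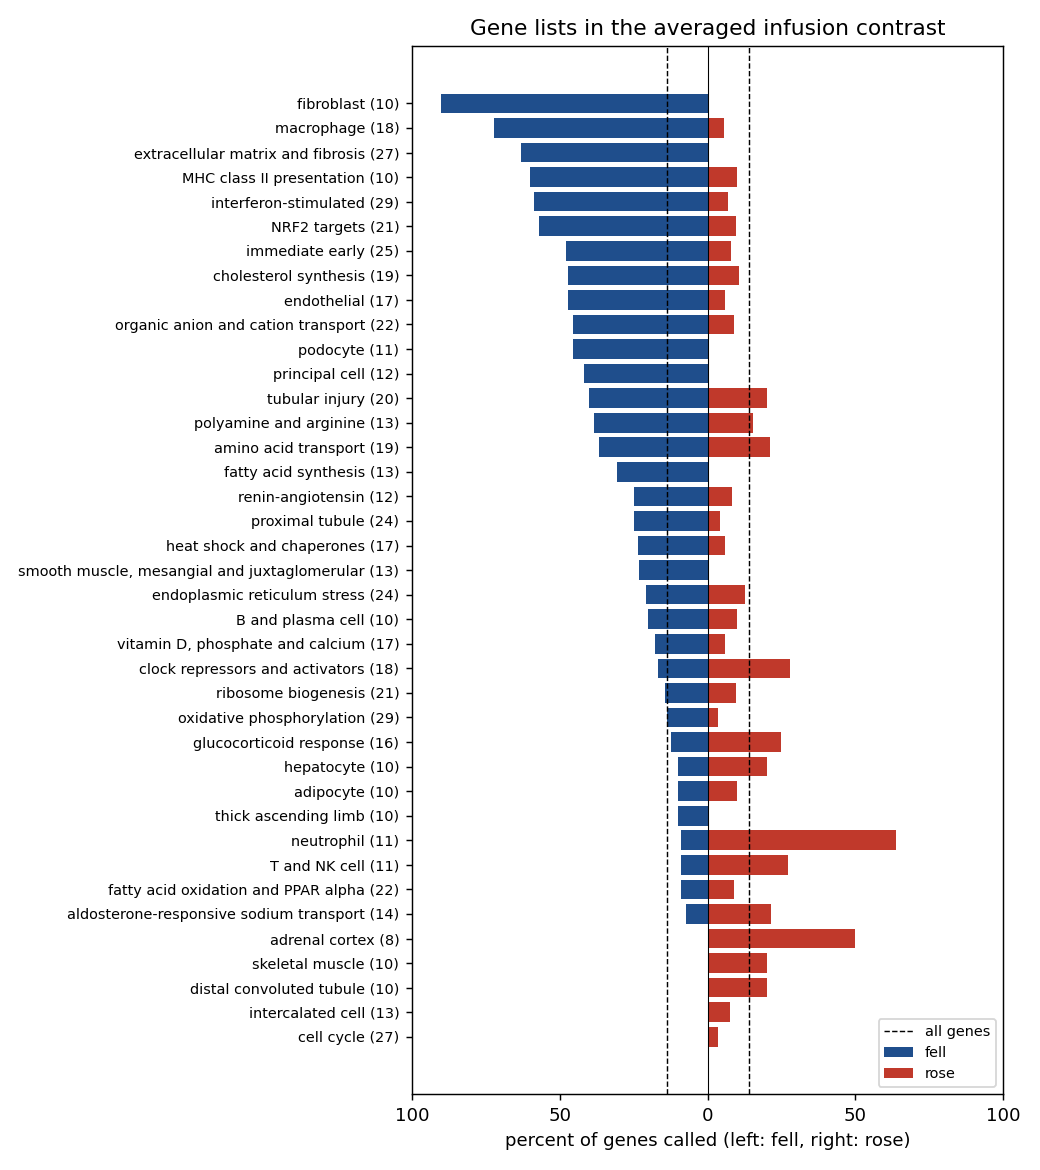
Share of measured genes called in the averaged contrast for each gene list with at least 8 measured genes, as percent that fell (blue, left) and rose (red, right), with the number measured in brackets. Dashed lines give the shares of all genes, 13.7% falling and 14% rising, and the fibroblast list, with 9 of 10 falling, lies farthest from them.

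Several leading falls rested on 1 of a gene's probe sets. Gatad2b, a subunit of the NuRD chromatin-remodelling complex, had the lowest adjusted p of the genes described here, 1.25e-08. The probe set used had ratios of 1.41, 1.6 and 1.63 in WT baseline, 0.496, 0.534 and 0.521 in WT ANG II, 1.63, 1.76 and 1.56 in KO baseline and 0.503, 0.586 and 0.530 in KO ANG II arrays. The baseline groups overlapped, so did the infused groups, and the sets were far apart, with a fall of 1.58 in WT and 1.61 in KO (95% interval of the difference -0.30 to 0.24). The other 4 probe sets of Gatad2b had averaged changes of -0.08 to 0.29, and 1 of them was called upward.

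Single probe sets also fell far more than the others for Nipbl, which loads cohesin, Smc4, a condensin subunit, and Npepps, a cytosolic aminopeptidase. Nipbl fell by 1.27 on average in the probe set used and its other 4 probe sets had -0.39 to 0.20. Smc4 fell by 1.12 in 1 probe set and the other 2 had -0.22 and 0.00, while Npepps fell by 0.99 in 1 probe set and the other 2 had 0.10 and 0.12. Hspa8, the constitutive heat shock cognate chaperone, fell by 1.45 in 1 probe set, and its other 3 probe sets had -0.15 to 0.06 and were not called. For Gatad2b, Nipbl, Smc4 and Npepps the both-genotype call ended when all probe sets of the gene were averaged (larger adjusted p = 0.226, 0.0631, 0.0661 and 0.0594). Ddx6, an RNA helicase of processing bodies, had 3 of 4 probe sets falling, by 1.08, 0.69 and 0.38, and its call held under that averaging. Which transcript each probe set matches was not analysed here.

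Disagreement between probe sets was common among the shared genes. Of the 79 rising genes with several probe sets, 50 had no other probe set called the same way and 13 had 1 or more called the opposite way in the averaged contrast. Of 175 such falling genes, these numbers were 81 and 14. Wipi1, an autophagy protein, rose by 0.57 in 1 probe set and fell by 0.49 in another, each in both genotypes. Elavl1, an RNA-stabilising protein also called HuR, rose by 0.58 in 1 of 6 probe sets and fell by 0.31 in another. In contrast 16 falling genes with several probe sets, chosen for naming after their values were seen, were shared in every one, namely Abi3bp, Cxcl14, Gbp2, Slco4c1, H2-Aa, Mndal, Trim30a, Stk26, Gsr, Eid1, Gclm, Skp1, Elovl5, Enpp4, Pgd and Xaf1. Of these, Elovl5 was not called in both genotypes with the replicate block (larger adjusted p = 0.0509). Its call ended under 9 of 21 settings, with 0.133 at most, and that of Cxcl14 under 5. Gsr, glutathione reductase, fell by 0.43 in WT and 0.44 in KO in the probe set used.

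**Figure D5:**
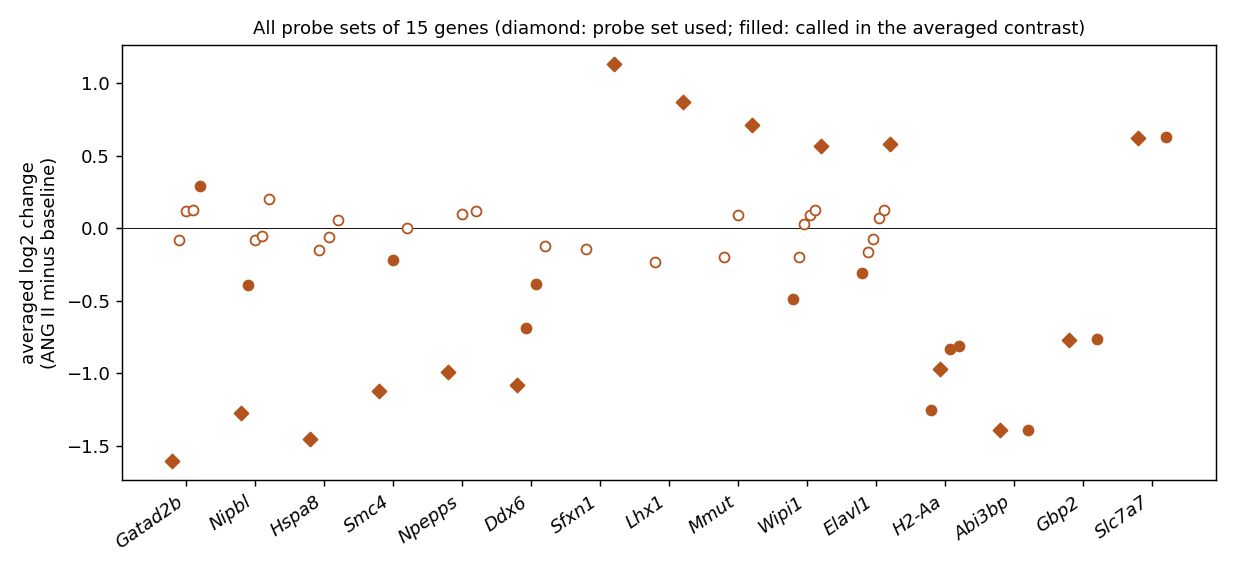
Averaged log2 change of every probe set of 15 genes, with a diamond for the probe set used and filled symbols for those called in the averaged contrast. The probe sets of H2-Aa, Abi3bp, Gbp2 and Slc7a7 lay together, while Gatad2b, Nipbl, Hspa8, Smc4, Npepps, Sfxn1, Lhx1 and Mmut had 1 probe set far from the others.

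A call with 1 sign in each genotype leaves little room for a large difference between them, so the differences of shared genes are a description. The difference was called for 11 of the 438 genes, 1 rise and 10 falls. Over all genes 10.2% were called, and over all probe sets 9.78%, a gap that the choice of genes itself produces. For 282 genes, 149 rises and 133 falls, the 95% interval of the difference lay within 0.5 on the log2 scale in either direction. For the rest the interval reached beyond those bounds. Snrnp70, a protein of the U1 splicing particle, fell more in KO than in WT in 1 of 4 probe sets (-1.29 against -0.40, difference -0.89 ± 0.18, adjusted p = 0.00837). Chst15, a sulfotransferase of chondroitin sulfate, had -1.06 against -0.24 (adjusted p = 0.000833), but its call in both genotypes ended under 17 of 21 settings, with a larger adjusted p of 0.132 at most, and 0.0624 with the replicate block. That of Snrnp70 ended with quantile normalization (0.0921), with averaged probe sets (0.902) and without WT ANG II array 2 (0.147) or WT baseline array 1, 2 or 3 (0.0898, 0.0956 and 0.0735). Psme3, a proteasome activator, fell more in WT (-0.97 against -0.44, difference 0.52, adjusted p = 0.0212). Its call in both genotypes ended when its probe sets were averaged (0.0981).

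Of 12 measured genes of the renin-angiotensin system 0 were shared, which says little of the list, since 2.41% of all genes were shared. The averaged contrast called Agtr1a, which fell by 0.23 on average, from -0.48 in WT and 0.01 in KO. The genes of the receptors still present in KO mice were not called in the averaged contrast. Agtr1b had an averaged change of 0.14 ± 0.08 (95% interval -0.03 to 0.31) and Agtr2 one of 0.01 ± 0.07 (-0.15 to 0.17). Agt, the precursor angiotensinogen, averaged 0.35 from 0.58 in WT and 0.12 in KO, and Ace, the converting enzyme, averaged -0.22 from -0.71 and 0.26.

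Opposite calls in the genotypes were as many as shared rises, 394 probe sets, of which 147 rose in WT and fell in KO and 247 did the reverse (0.875% in all). The averaged contrast called 65 of the 394, among them the carbonic anhydrase gene Car3, which averaged -1.19 from -3.5 in WT and 1.11 in KO. The rest were not called on average, and these included Pdk4 and Inhbb. Pdk4, a kinase that restrains glucose oxidation, averaged 0.22 from 1.89 in WT and -1.44 in KO, and Inhbb, an activin subunit, averaged -0.21 from 1.36 and -1.78.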

How the data were processed

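Kidney RNA of 12 mice was hybridised to Affymetrix whole-genome mouse expression arrays, 1 array per mouse and 3 per group. The deposited ratio values came from RMA, per the submitters' processing notes, and each probe set's ratios had a median within 0.002 of 1 for 45099 of 45101 probe sets. No source used here says how the ratio was formed. Control probe sets (64) were left out, and log2 of the deposited ratio was fitted with limma 3.58.1 in R 4.3.3 as 4 group means (8 residual degrees of freedom), with Benjamini-Hochberg adjustment over all 45037 probe sets. No filter on low values was possible, ratios do not show signal over background, and the number of arrays limits the precision. Replicate spread is between mice. Probe sets were named from the platform annotation, 34945 with 1 symbol, 932 with several and 9160 with none, and each gene was represented by 1 probe set, chosen by its name alone (the plainest suffix, then the lowest number).

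The genes named by rule were the 15 rises and the 15 falls without overlap in either genotype, ranked by the smaller of the WT and KO changes. To these came up to 4 shared members of each list (or the 2 with the lowest p), the 4 largest averaged changes each way, the 6 large shared changes closest between genotypes, the 4 largest called differences each way, the 4 largest opposite changes and 5 renin-angiotensin genes. The members and lists were chosen with earlier results of these data known. Same-numbered arrays deviated together in 7 of 18 pairs (correlation over 0.1; range -0.157 to 0.219), so the numbers were not taken as pairs over the 4 groups, although all 3 WT baseline and WT ANG II pairs were over 0.1. Alternatives covered normalization, variance model, probe set summary, array weights, block and each array left out.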

Additional observations from a re-analysis of the deposited data

Results flagged for a closer look

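The responses of the genotypes differed for 32 of the named genes, by the test of the interaction in limma with Benjamini-Hochberg adjustment. Values are the KO minus the WT log2 change. Among genes called as falling in both genotypes the difference was 1.73 for Ces1g, 0.53 for Vma21, 0.52 for Psme3 and 0.44 for Snrpd3, which fell more in WT. The call of Vma21 in both genotypes ended under 13 of 21 settings, the replicate block (larger adjusted p = 0.0536) among them, and that of Chst15 under 17. The difference was -0.89 for Snrnp70, -0.82 for Chst15, -0.75 for Tle1 and -0.67 for Atp8a1, which fell more in KO. When probe sets were averaged, the calls of Psme3 and Snrpd3 in both genotypes ended (larger adjusted p = 0.0981 and 0.718). Those of Tle1 and Atp8a1 ended then too, and without some single arrays, with 0.236 and 0.43 at most. Genes called upward in WT and downward in KO had differences of -3.32 for Pdk4, -3.13 for Inhbb, -3.09 for Cp, -2.83 for Arg2 and -1.42 for the phosphatase gene Dusp1. The carbonic anhydrase gene Car3 was called downward in WT (-3.5) and upward in KO (1.11), a difference of 4.61.

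Genes not called in both genotypes made up the rest. Lower in the KO response were Cyp4a14 (-4.8), Serpina6 (-2.71), the growth factor binding protein gene Igfbp2 (-1.8), Alas2 of heme synthesis (-1.44), the gelatinase gene Mmp2 (-0.72), the ammonia channel gene Rhcg (-0.62), the sodium channel gene Scnn1a (-0.56) and Pou2af1 (-0.53). Higher in the KO response were Acsm3 (2.69), Idi1 of cholesterol synthesis (2.2), the transferrin receptor gene Tfrc (1.66), Nhp2 (1.34), the fatty acid transporter gene Cd36 (1.18), Ace (0.97), the aminopeptidase gene Anpep (0.82), the claudin gene Cldn16 (0.55), Azin1 (0.54) and Agtr1a (0.49). Groups of 3 arrays were too small for a formal check of single outlying arrays. Fits with each array left out in turn are given below.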

How the results depend on the processing

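Most counts depended on the processing, and the counts of shared rises most. Quantile normalization gave 2992 averaged rises, 158 rises in both genotypes and 2867 probe sets whose responses differed. Fitting each genotype alone gave 225 shared rises, and array weights gave 674. With 1 probe set per gene there were 2624 averaged rises, 2558 averaged falls, 191 shared rises, 275 shared falls and 1970 differences, and with the mean of each gene's probe sets 2833, 2746, 223, 313 and 2361, both from fewer features tested. An unadjusted p under 0.01 with a 1.5-fold change in both genotypes gave 20 shared rises and 227 shared falls. An averaged call with the same sign in both genotypes and no called difference gave 5818 and 4607. Leaving out each array in turn gave 3699 to 7108 averaged rises, 4365 to 6661 averaged falls, 124 to 475 shared rises, 488 to 815 shared falls and 2484 to 5104 differences. Averaged rises fell to 3979 without KO ANG II array 2, 4044 without KO baseline array 2 and 3699 without WT baseline array 1, and the differences to 2484 without KO ANG II array 3 and 2868 without WT baseline array 3. The replicate number as a block gave 6434 averaged rises, 6200 averaged falls, 403 shared rises, 860 shared falls and 4276 differences, and moved no count by over 1.5 times. With it Aqp3, Elovl5, Vma21 and Chst15 were no longer called in both genotypes (larger adjusted p = 0.0558, 0.0509, 0.0536 and 0.0624). Same-numbered arrays did not correlate throughout, although the 3 pairs of WT baseline and WT ANG II arrays did (0.186, 0.183 and 0.128). The mean correlation with the arrays of the other groups was highest for the array's own number in 7 of 12 arrays. Of the 107 named genes with an averaged call, 82 held it under all 21 settings, and of 65 named shared genes 19 were called in both genotypes under all 21. No named gene with a call changed direction under them; Agtr2, not called, ran from -0.04 to 0.05. Except where stated, the cause of these shifts was not tested.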

Other observations

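Neutrophil genes were among the few lists that rose on average and had no shared member. Of 11 measured, 7 rose and 1 fell (14% and 13.7% of all genes), with 4 rises under quantile normalization. In WT alone 6 rose and 0 fell, with a median log2 change of 0.47, against 2 rises, 1 fall and 0.22 in KO. S100a9 and S100a8, the subunits of calprotectin, had averaged log2 rises of 1.34 and 1.19. Their adjusted p-values were 0.0125 and 0.0371 in KO and 0.147 and 0.192 in WT, and in both genes all 6 infused arrays were above all 6 baseline arrays. Lcn2, also made by injured tubules, was the fall, at 1.05 in WT and -2.24 in KO. The mean log2 ratio of the list was -0.156 to -0.096 in WT baseline, 0.214 to 0.579 in WT ANG II, -0.205 to -0.026 in KO baseline and 0.022 to 0.345 in KO ANG II arrays, with no overlap between infused and baseline arrays.

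Of 27 cell cycle genes measured, 1 rose on average, the cyclin Ccnd1 (0.29), and 0 fell (14% and 13.7% of all genes). Adrenal cortex genes, from a gland next to the kidney, rose on average in 4 of 8 cases (14% of all genes). Among them were Cyp11b1 (0.32) and Hsd3b1 (0.28), and 0 of the 8 were shared (2.41% of all genes). Star and Cyp11a1, which start steroid synthesis, were at 0.01 and -0.03 and not called.

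The kinds of names among the shared rises were looked at after their values were seen. Clone names ending in Rik or beginning with Gm were 31 of the 174 shared rises (17.8%), 3 of the 264 shared falls (1.14%), 16.5% of averaged rises and 9.61% of all genes. Keratin or keratin-associated genes were 6 of the shared rises (3.45%), 1 of the shared falls (0.379%), 1.06% of averaged rises and 0.489% of all genes. The shared fall was Krt8, which is on the tubular injury list. Krt71, of hair follicles, had baseline ratios of 0.751 to 1.01 and infused ratios of 0.993 to 1.30. Wap, a milk protein, and Hcrt, a neuropeptide of the hypothalamus, rose by 0.35 and 0.36. Whether these probe sets were above background on the arrays cannot be read from ratios.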
